A study of Mus musculus with 6 samples.

Results

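The 10 genes described here, Per1, Per2, Per3, Cry1, Cry2, Dbp, Nr1d1, Nr1d2, Arntl (also called Bmal1) and Clock, are core parts of the circadian clock or its direct output. They were taken by symbol from a table of 55487 genes, and all 10 were measured well enough to be tested. RNA was sequenced from 6 cultures labelled as skin endothelial cells (ECs) of C57BL/6 mice. The cells had been enriched with CD31 beads from the pooled skin of 4 to 6 mice aged 2 to 3 months. A group of 3 cultures was kept in 5 mmol/L glucose (normal glucose) and another of 3 in 20 mmol/L glucose (high glucose), both for 48 hours. No genetic change or further agent separated the groups in the labels. The comparison asks whether sustained high glucose shifted the transcripts of the clock in these cells. Every culture was sampled once, after 48 hours, and no label gives an hour of the day or a synchronizing step. A change in the mean level of a rhythmic transcript and a change in the timing of its rhythm therefore cannot be told apart in this design.

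The mammalian clock is a transcriptional feedback loop that runs in nearly every cell, vascular cells and fibroblasts included. ARNTL and CLOCK (or NPAS2, a close relative of CLOCK) bind together at E-box sequences and switch on the Per and Cry genes, whose proteins return to the nucleus and repress them. The same pair drives Nr1d1 and Nr1d2, which encode the REV-ERB nuclear receptors. These repress Arntl through RORE sequences, where the ROR receptors activate. Dbp is a further E-box target and encodes a transcription factor that acts on D-box sequences, in opposition to the repressor NFIL3. In blood vessels the clock is known for daily rhythms of vascular tone and of coagulation factors.

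Promoter sequences show where these elements lie in the members whose transcripts changed. Of the 10 genes, 9 had a window from 250 bases before to 50 bases after the start site in the RefSeq table for GRCm38.p6. Per2 had no entry. In these windows 5 motifs were searched on both strands, the E-box CACGTG, the E'-box CACGTT, the D-box TTATGTAA or TTACGTAA, the RORE core TAGGTCA or TGGGTCA, and the cAMP response element TGACGTCA. No motif is contained in another. Because a gene can have several start sites, the 9 genes had 13 windows. At least 1 motif lay in 6 of these 13 windows, each of a different gene, against 19.5% of all windows in the table. A match describes letters only, and a window without a match says nothing about sites elsewhere in the gene. The sequences of Per1, Per3 and Cry1 are the 250 bases upstream of a start site of the members that rose in high glucose in every setting tried. That of Arntl is a 30-base stretch after a start site of the member that fell. Ciart, a repressor of the loop from the wider list, is shown because its window held 3 E-boxes and its transcript fell. Of the 17 genes of that list with a window, 4 held an E-box. Ciart and Bhlhe41 fell, whereas Tef and Cipc rose. At least 1 motif lay in 9 of the 23 windows of that list. Capitals mark the E-box in Per1 and Ciart, both D-boxes in Per3, the E'-box (read as its reverse complement) followed by the E-box in Cry1, and the RORE core in Arntl.
Per1 (chr11:69098699-69098948, plus strand): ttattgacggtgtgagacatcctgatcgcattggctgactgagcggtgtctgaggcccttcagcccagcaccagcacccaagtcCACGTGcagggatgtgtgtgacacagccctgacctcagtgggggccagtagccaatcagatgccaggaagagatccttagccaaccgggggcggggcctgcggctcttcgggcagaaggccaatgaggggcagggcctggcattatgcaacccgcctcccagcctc
Per3 (chr4:151044666-151044915, minus strand): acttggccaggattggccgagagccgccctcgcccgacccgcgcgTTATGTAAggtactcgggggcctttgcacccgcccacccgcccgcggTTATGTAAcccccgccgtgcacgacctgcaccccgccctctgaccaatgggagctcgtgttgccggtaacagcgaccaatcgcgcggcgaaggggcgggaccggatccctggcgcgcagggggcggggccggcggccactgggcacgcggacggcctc
Cry1 (chr10:85185055-85185304, minus strand): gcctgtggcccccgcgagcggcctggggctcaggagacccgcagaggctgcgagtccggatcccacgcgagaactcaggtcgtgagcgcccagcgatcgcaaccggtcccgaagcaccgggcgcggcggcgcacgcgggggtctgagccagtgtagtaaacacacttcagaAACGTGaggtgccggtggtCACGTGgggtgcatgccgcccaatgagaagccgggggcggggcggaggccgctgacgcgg
Arntl (chr7:113207530-113207559, plus strand): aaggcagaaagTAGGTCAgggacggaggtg
Ciart (chr3:95882229-95882478, minus strand): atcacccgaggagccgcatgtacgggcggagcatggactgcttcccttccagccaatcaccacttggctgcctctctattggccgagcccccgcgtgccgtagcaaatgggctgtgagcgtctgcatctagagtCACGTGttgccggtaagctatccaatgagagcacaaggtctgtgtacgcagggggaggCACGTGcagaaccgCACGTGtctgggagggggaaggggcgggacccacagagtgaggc

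Positions are counted from the start site of each window, with negative values upstream. The E-box of Per1 starts at -166, and an E-box was present in 7.15% of all windows. Among the members, only the windows of Per1 and Cry1 held one. In Cry1 it starts at -60, and the E'-box starts at -79. E'-boxes also occurred in the windows of Cry2, at -166, and Nr1d1, at -28, against 4.69% of all windows. The D-boxes of Per3 start at -205 and -158, and D-boxes were found in 1.05% of all windows. The RORE core of Arntl starts at 31, and 6.46% of all windows held such a core. None of the 5 motifs lay in the windows of Dbp, Nr1d2 and Clock.

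Total counts per culture ranged from 120192466 to 146881356, so that 3 counts, the upper limit that a count of 0 allows, corresponded to 0.0204 to 0.0250 CPM (counts scaled to the size of the library). CPM values were normalized with TMM factors, which correct for a few genes taking a larger part of a library. These factors were 1.03 to 1.05 in normal glucose and 0.954 to 0.966 in high glucose, where the 10 most abundant genes took 11.4% to 11.6% of counts against 7.86% to 8.18%. The endothelial label was checked against markers. Of 12 endothelial markers, Pecam1 lay at 0.0634 to 0.152 CPM, Cldn5 was at 0 in 4 cultures and Tie1 at 0 in 5. The 12 summed to 204 to 232 CPM in normal and 184 to 190 CPM in high glucose, mostly through Eng and Flt1. Of the 9 tested, 2 rose (Tek and Erg) and 2 fell (Cdh5 and Flt1). Erg was close to the limit of 3 counts, averaging 0.0373 CPM in normal and 0.106 CPM in high glucose. Summed fibroblast markers reached 38051 to 41192 CPM in normal and 70178 to 75154 CPM in high glucose, and of 9 such genes 8 rose and 1 (Thy1) fell. The cells are therefore called cultures here rather than ECs. Pericyte and smooth muscle markers summed to 904 to 990 CPM in normal and 866 to 925 CPM in high glucose, with 1 of 6 higher and 3 lower. Macrophage markers summed to 8.33 to 9.35 against 5.72 to 6.52 CPM, with Ptprc at 0 in 5 cultures and 2 of the 3 tested lower. Keratinocyte markers summed to 2.09 to 2.97 against 2.23 to 2.45 CPM, with 1 of the 2 tested higher. This was Krt5, also close to that limit, at a mean of 0.0152 CPM in normal and 0.123 CPM in high glucose. Beside these marker counts, 16.9% of all tested genes rose and 14.5% fell. The endothelial, fibroblast and macrophage sums did not overlap between the groups, and their part in the clock gene differences was not tested. In bulk RNA, fewer cells of a type and less RNA per cell cannot be told apart.

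High glucose was accompanied by higher Per1, Per3, Cry1 and Nr1d1 and by lower Arntl, while Per2, Cry2, Dbp, Nr1d2 and Clock did not pass the test. The call of Nr1d1 held in only 4 of 18 alternative settings. Calls rest on the quasi-likelihood test of edgeR over 19015 genes, at an adjusted p (Benjamini-Hochberg) under 0.05. Thus 4 of the 10 members were higher, when 16.9% of all tested genes were, and 1 was lower, when 14.5% of all tested genes were. In either direction 5 of 10 passed, against 31.4% of all tested genes and 36% of the 5965 genes in the same range of abundance. The median log2 fold change (log2FC, high over normal glucose) of the 10 genes was 0.16, with 8 above 0 and 2 below, beside a median of 0.0062 over all tested genes. The values of the groups did not overlap in 5 of the 10, close to the 46.4% seen among all tested genes. Differences between single cultures and groups are given below with the standard deviation (SD, n = 3) and, for fold changes, the standard error (SE). An exact permutation test of 3 against 3 cultures cannot give a two-sided p below 0.1.

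**Figure D1:**
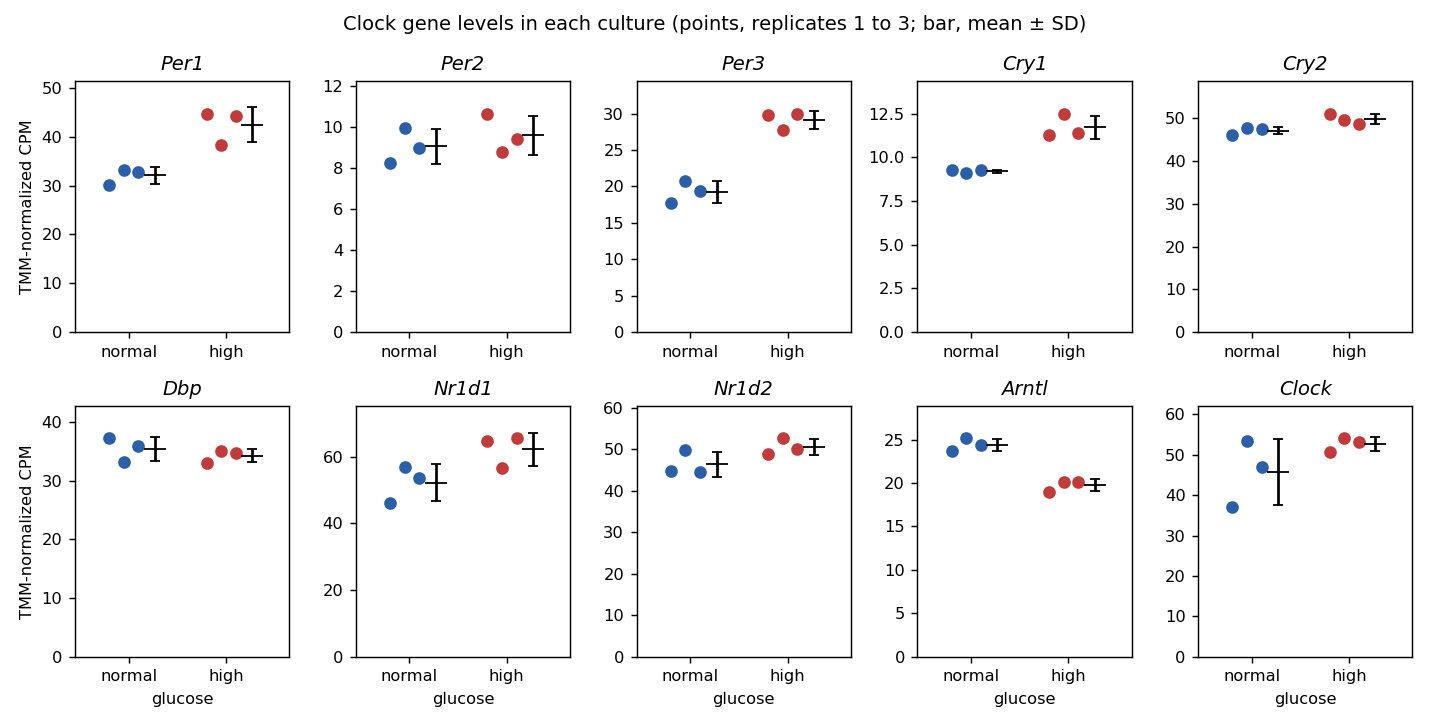
Levels of the 10 clock genes in each culture, as TMM-normalized CPM on an axis from 0, in normal and high glucose, with points for the 3 cultures of a group and a bar for their mean ± SD. Per1, Per3 and Cry1 lie higher and Arntl lower in all high-glucose cultures, whereas the points of Per2, Dbp, Nr1d1, Nr1d2 and Clock overlap between the groups.

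In the activating arm of the loop Arntl fell while Clock did not pass the test. Arntl (ENSMUSG00000055116, chr7:113207465-113314126, plus strand, positions in GRCm38 here and below) encodes the protein that pairs with CLOCK to bind DNA. Its level was 23.7, 25.1 and 24.3 CPM in the normal-glucose cultures and 18.9, 20.1 and 20.1 CPM in the high-glucose cultures. The groups did not overlap, and the gap between the highest treated and the lowest control culture exceeded the spread within either group. The mean decreased from 24.4 ± 0.697 to 19.7 ± 0.689 CPM (SD, n = 3), so that the log2FC was -0.31 (SE 0.054, adjusted p = 0.00176). Its exons share 33 bases with the antisense gene Gm45355, which had no counts in any culture.

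Clock (ENSMUSG00000029238, chr5:76209868-76304792, minus strand) encodes the other subunit. It lay at 37.0, 53.3 and 46.9 CPM in normal glucose and at 50.6, 54.0 and 53.2 CPM in high glucose. Normal-glucose culture 1 was the lowest of all 6 and culture 2 was within the high-glucose range, so the groups overlapped. The log2FC was 0.20 with a 95% interval of -0.039 to 0.44 and an adjusted p of 0.186. Clock was the most variable member in normal glucose, with a coefficient of variation (SD over mean) of 18.0% against 3.36% in high glucose. Leaving out normal-glucose culture 2 gave 0.32 (adjusted p = 0.0333), and leaving out culture 1 gave 0.051. Over all 18 settings tried the adjusted p lay between 0.0333 and 0.582.

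Npas2 (ENSMUSG00000026077), which can take the place of CLOCK beside ARNTL, rose most of the 31 clock and clock-associated genes. It measured 8.80, 10.998 and 10.9 CPM in normal glucose. In high glucose it measured 16.1, 18.0 and 17.7 CPM, well clear of the controls. The log2FC was 0.75 (SE 0.092, adjusted p = 0.000154), an increase of 68.5%.

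Among the Period genes, which encode the repressors that accumulate and are degraded over a cycle, Per1 and Per3 rose. Per3 (ENSMUSG00000028957, chr4:151003652-151044665, minus strand) had the largest change of the 10 members. The normal-glucose cultures held 17.7, 20.8 and 19.4 CPM and the high-glucose cultures 29.8, 27.7 and 29.97 CPM. All 3 treated cultures stood above all 3 controls, the means being 19.3 ± 1.55 and 29.2 ± 1.24 CPM (SD, n = 3). This amounted to an increase of 51.5%, with a log2FC of 0.60 (SE 0.068) and an adjusted p of 8.77e-05.

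Per1 (ENSMUSG00000020893, chr11:69095217-69109960, plus strand) is an E-box target that also responds rapidly to outside signals. Its levels were 30.1, 33.3 and 32.7 CPM in normal glucose and 44.7, 38.3 and 44.3 CPM in high glucose. High-glucose culture 2 was the nearest to the controls but still above each of them. The mean went from 32.1 ± 1.67 to 42.4 ± 3.56 CPM (SD, n = 3), up by 32.4%, with a log2FC of 0.40 (SE 0.071, adjusted p = 0.00158).

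Per2 (ENSMUSG00000055866, chr1:91415982-91459324, minus strand) is a repressor closely related to PER1. It gave 8.25, 9.95 and 8.997 CPM in normal glucose and 10.6, 8.76 and 9.40 CPM in high glucose. The groups overlapped, with the lowest treated culture under the middle control. The log2FC was 0.083, with a 95% interval from -0.13 to 0.30 (adjusted p = 0.554).

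Of the Cryptochromes, the strong repressors that bind the PER proteins, Cry1 rose. Cry1 (ENSMUSG00000020038, chr10:85131700-85185064, minus strand) was at 9.26, 9.09 and 9.25 CPM in normal glucose, the tightest set of values of any member, with a coefficient of variation of 1.06%. High-glucose cultures were at 11.3, 12.5 and 11.4 CPM, all above the controls. The rise of 27.4% corresponded to a log2FC of 0.35 (SE 0.070, adjusted p = 0.00349). Cry2 (ENSMUSG00000068742, chr2:92403646-92434043, minus strand) was at 46.0, 47.6 and 47.4 CPM in normal glucose and 51.0, 49.6 and 48.7 CPM in high glucose. The groups did not overlap, but the log2FC of 0.081 (95% interval -0.028 to 0.19) did not pass the test (adjusted p = 0.237). It turned to -0.034 when libraries were scaled by their total counts alone and to -0.0061 when trends with GC content and length were removed. Cry2 shares 295 exonic bases with D930015M05Rik on the other strand, which averaged 0.249 CPM in normal and 0.244 CPM in high glucose.

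The REV-ERB receptors form the loop that represses Arntl. Nr1d1 (ENSMUSG00000020889, chr11:98767932-98775333, minus strand) was at 46.1, 56.8 and 53.7 CPM in normal glucose and 64.7, 56.5 and 65.5 CPM in high glucose. High-glucose culture 2 lay just below normal-glucose culture 2, so the groups overlapped. The mean went from 52.2 ± 5.52 to 62.2 ± 4.99 CPM (SD, n = 3), with a log2FC of 0.25 (SE 0.084) and an adjusted p of 0.0437, whereas the exact permutation p was 0.2. This call was close to the threshold and was lost in 14 of 18 alternative settings, with adjusted p between 0.0220 and 0.248. A block for the replicate number gave 0.26 (adjusted p = 0.071). It was also lost when normal-glucose culture 1 (0.15, adjusted p = 0.111) or 3 (0.26, adjusted p = 0.102), or high-glucose culture 1 (0.21, adjusted p = 0.182) or 3 (0.20, adjusted p = 0.194), was left out.

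The 3′ end of Nr1d1 overlaps Thra, the thyroid hormone receptor alpha gene, on the opposite strand over 263 bases, or 8.55% of its exonic length. Whether counting used strand is not given in the sources used here. Thra rose from 144 ± 6.54 to 184 ± 2.61 CPM (log2FC 0.36, adjusted p = 0.000517), and the part of shared reads in the Nr1d1 difference was not tested. Nr1d2 (ENSMUSG00000021775, chr14:18204054-18239127, minus strand), the second REV-ERB gene, was at 44.8, 49.9 and 44.5 CPM in normal glucose and at 49.0, 52.6 and 50.1 CPM in high glucose. High-glucose culture 1 fell within the control range. The log2FC of 0.12 had a 95% interval from -0.010 to 0.26 and an adjusted p of 0.146. It passed the test after removal of GC and length trends (0.13, adjusted p = 0.0343) and without normal-glucose culture 2 (0.17, adjusted p = 0.037), and its adjusted p reached 0.924 in other settings.

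Rora and Rorb, which encode ROR receptors that activate Arntl at the same sequences, did not pass the test. Rora averaged 51.5 ± 3.62 CPM in normal and 46.3 ± 1.23 CPM in high glucose, which gave a log2FC of -0.15 with an adjusted p of 0.0803. It was called lower in 6 of the 18 settings, among them library size scaling (-0.27, adjusted p = 0.00919) and the omission of normal-glucose culture 3 (-0.22, adjusted p = 0.0362), with adjusted p from 0.00343 to 0.186 over all. Rorb averaged 6.36 CPM in normal and 5.85 CPM in high glucose.

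Dbp (ENSMUSG00000059824, chr7:45705088-45710203, plus strand), the D-box activator and a usual readout of ARNTL and CLOCK, was at 37.2, 33.1 and 35.8 CPM in normal glucose. In high glucose it was at 33.0, 35.0 and 34.7 CPM. The values of the groups interleaved, and the log2FC was -0.048 with a 95% interval from -0.18 to 0.083 (adjusted p = 0.577). When libraries were scaled by total counts alone, the log2FC was -0.16 and passed the test (adjusted p = 0.0477, against up to 0.740 in other settings). Its exons share 539 bases, 18% of their length, with Sphk2 on the opposite strand, which averaged 52.2 CPM in normal and 55.2 CPM in high glucose (adjusted p = 0.309).

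The other members of the same family of D-box factors, and their antagonist, rose. Hlf averaged 8.38 ± 0.669 CPM in normal and 11.3 ± 0.354 CPM in high glucose, a log2FC of 0.42 (SE 0.078, adjusted p = 0.00224). Tef averaged 76.6 ± 0.674 and 87.3 ± 1.504 CPM, a smaller difference of 0.19 (SE 0.047, adjusted p = 0.0121). The call of Tef was lost in 7 of 18 settings, with adjusted p from 0.00207 to 0.246 over all 18. Without high-glucose culture 1, 2 or 3 Tef stood at 0.16, 0.17 or 0.19, with adjusted p of 0.0891, 0.0643 and 0.0649. Library size scaling gave 0.074 (adjusted p = 0.246), and removal of GC and length trends gave 0.078 (adjusted p = 0.201). Nfil3, the repressor that competes for D-boxes, was at 101, 99.3 and 103 CPM in normal glucose. It was at 138, 145 and 142 CPM in high glucose, a gap many times the spread within either group. The log2FC of Nfil3 was 0.49 (SE 0.049, adjusted p = 3.56e-05).

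**Figure D2:**
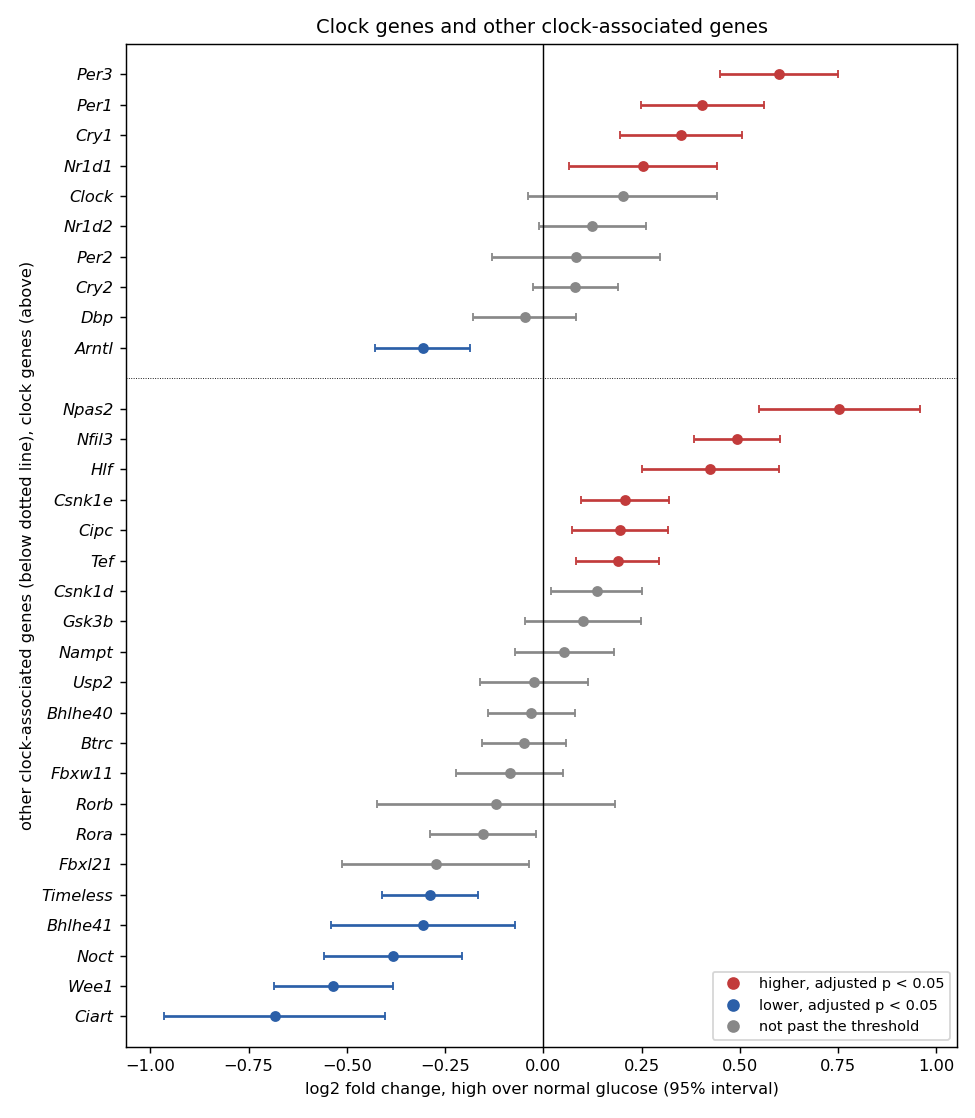
Log2FC values in high over normal glucose with 95% intervals for the 10 clock genes (above the dotted line) and 21 other clock-associated genes (below it), coloured by the result of edgeR's quasi-likelihood test. Npas2 (0.75) and Per3 (0.60) lie furthest to the right, and Ciart (-0.68) and Wee1 (-0.54) furthest to the left.

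Of the 21 other clock-associated genes, 6 rose (Npas2, Nfil3, Hlf, Csnk1e, Cipc and Tef), 5 fell (Ciart, Wee1, Noct, Bhlhe41 and Timeless) and 10 did not pass the test. The median of their log2FC values was -0.031, beside 0.0062 over all tested genes. Of these 21 genes 52.4% were called, against 31.4% of all tested genes (16.9% higher and 14.5% lower). The 3 further repressors of ARNTL and CLOCK that were called moved in both directions. Ciart was at 2.70, 2.35 and 2.79 CPM in normal glucose and at 1.76, 1.38 and 1.73 CPM in high glucose, without overlap. It fell by 0.68 on the log2 scale (SE 0.127, adjusted p = 0.00231). Bhlhe41, which competes for E-boxes, averaged 3.70 and 2.99 CPM (log2FC -0.31, adjusted p = 0.0492), a call lost in 10 of 18 settings and with adjusted p from 0.0536 to 0.164 when any culture but high-glucose culture 2 was left out. Cipc, which binds CLOCK, averaged 17.9 and 20.5 CPM (log2FC 0.20, adjusted p = 0.0212), a call lost in 9 settings, including the omission of normal-glucose culture 3 or of any high-glucose culture (adjusted p from 0.0508 to 0.131). Bhlhe40, the close relative of Bhlhe41, averaged 106 and 103 CPM (adjusted p = 0.679) and was called lower under library size scaling only (-0.15, adjusted p = 0.0455).

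Among enzymes that mark or degrade the clock proteins, Csnk1e, a kinase of the PER proteins, rose from 60.2 ± 1.72 to 69.6 ± 1.81 CPM (log2FC 0.21, adjusted p = 0.0103). This call was lost in 6 of 18 settings, with adjusted p from 0.00118 to 0.177 over all 18. It was lost without high-glucose culture 1 (0.19, adjusted p = 0.0672) or 3 (0.17, adjusted p = 0.0946). Library size scaling gave 0.094 (adjusted p = 0.177), and removal of GC and length trends gave 0.11 (adjusted p = 0.121). Csnk1d, the related kinase, averaged 221 and 243 CPM and did not pass (adjusted p = 0.072). Fbxl21, whose ubiquitin ligase acts on the CRY proteins, had a log2FC of -0.27 and did not pass (adjusted p = 0.0768). It was called lower in 4 of 18 settings, under upper quartile normalization (-0.32, adjusted p = 0.0453), library size scaling (-0.39, adjusted p = 0.0191), a minimum count of 50 (-0.30, adjusted p = 0.0498) and removal of GC and length trends (-0.27, adjusted p = 0.0479), with adjusted p up to 0.208 in others. The remaining 4 genes of this kind, Btrc, Fbxw11, Usp2 and Gsk3b, lay between -0.086 and 0.10 and did not pass. Btrc was called lower in 3 of 18 settings, at -0.23 with GC and length trends removed (adjusted p = 0.0243) or with the block added to that (adjusted p = 0.0118), and at -0.16 under library size scaling (adjusted p = 0.0238), within a range of 0.0118 to 0.583 over all. Fbxw11 was called lower in 2, under library size scaling (-0.20, adjusted p = 0.0292) and without normal-glucose culture 1 (-0.16, adjusted p = 0.0192), within a range up to 0.571.

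Genes that link the clock to other processes fell or did not pass. Wee1, a brake on entry into mitosis, was at 12.7, 13.6 and 12.4 CPM in normal glucose and 8.88, 8.70 and 9.12 CPM in high glucose. It fell by 31% on the fitted scale, with an adjusted p of 0.000202. Timeless, which acts at replication forks, averaged 45.5 ± 2.08 and 37.3 ± 1.10 CPM (log2FC -0.29, adjusted p = 0.00273). Noct, which removes phosphate from NADP cofactors, averaged 9.08 ± 0.596 and 6.96 ± 0.240 CPM (log2FC -0.38, adjusted p = 0.00437). Nampt, the enzyme that limits NAD synthesis from nicotinamide, averaged 82.6 and 85.7 CPM (adjusted p = 0.517).

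Levels of different genes can be compared only per length, here as normalized CPM per kb of the gene's exons. In normal glucose Nr1d1 was the highest of the 10 at 17.0, followed by Dbp at 11.8, Nr1d2 at 8.57, Cry2 at 7.44 and Per1 at 5.69 CPM per kb. Clock at 3.33 and Arntl at 3.24 followed, with overlapping cultures, and then Cry1 at 2.75, Per3 at 2.00 and Per2 at 1.55 CPM per kb. All other neighbours in this order were separated in every culture. In high glucose Nr1d1 stood at 20.2, Dbp at 11.4 and Nr1d2 at 9.35, and Cry2 at 7.87 overlapped with Per1 at 7.53 CPM per kb. Clock at 3.83 overlapped with Cry1 at 3.51, and Per3 at 3.04 now stood above Arntl at 2.62, with Per2 lowest at 1.64 CPM per kb. Arntl had thus moved from above Cry1 and Per3 to below both. With the longest transcript as the length, Arntl stayed above Cry1 in high glucose, at 4.94 against 3.88. Per3 then averaged 4.86, and its cultures overlapped with those of Arntl. The crossing thus depends on the length assigned to each gene. So does part of the order itself, since with that length Dbp (19.3) was level with Nr1d1 (19.2) at the top in normal glucose. Cry2 then stood above Nr1d2, at 11.8 against 9.94 in normal and 12.5 against 10.8 CPM per kb in high glucose, and Arntl above Clock in normal glucose (6.11 against 4.69).

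**Figure D3:**
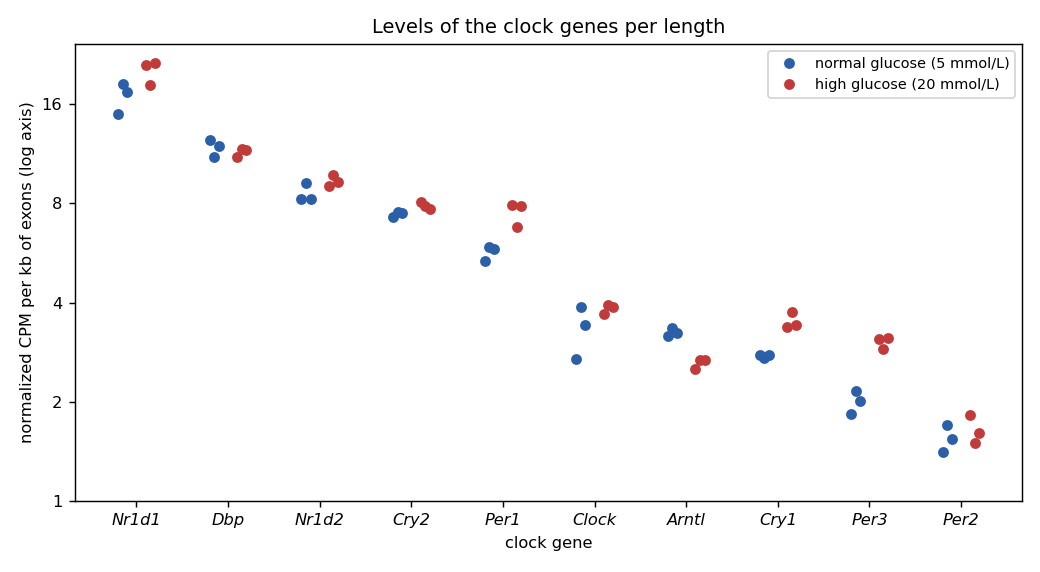
Levels of the 10 clock genes as normalized CPM per kb of exons on a log axis, with a point for each culture in normal and high glucose. With this length Nr1d1 is the highest and Per2 the lowest in both groups, and Arntl lies above Cry1 and Per3 in normal glucose (3.24 against 2.75 and 2.00) but below both in high glucose (2.62 against 3.51 and 3.04).

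Ratios of members within a culture are free of the scaling between libraries. The log2 ratio of Dbp to Arntl, an output set against its activator, was 0.65, 0.40 and 0.56 in the normal-glucose cultures. It was 0.80, 0.80 and 0.79 in the high-glucose cultures, a difference in means of 0.26 without overlap. Taken singly, Arntl had a log2FC of -0.31, while that of Dbp was -0.048 and did not pass the test. The remaining 9 pairs were chosen after their values had been seen and are given without a test. Several share Arntl and so are not separate observations. The groups did not overlap in 46.4% of single tested genes, and the share among other gene pairs was not computed. Per1 over Arntl, a repressor over the activator it inhibits, averaged 0.39 ± 0.0430 in normal and 1.10 ± 0.159 in high glucose, the largest difference of the 10 pairs at 0.71. Nr1d1 over Arntl averaged 1.09 and 1.65, with no overlap although the levels of Nr1d1 alone overlapped.

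Between close relatives, Per3 over Per2 averaged 1.09 ± 0.0242 in normal and 1.61 ± 0.105 in high glucose, and Per1 over Per2 averaged 1.82 and 2.14. Cry1 over Cry2 averaged -2.35 ± 0.0386 and -2.08 ± 0.0932. In these 3 pairs every high-glucose culture exceeded every control. Nr1d1 over Nr1d2 averaged 0.17 and 0.30 and was the only pair of the 10 with overlapping groups. Npas2 over Clock averaged -2.15 in normal and -1.61 in high glucose. Arntl over Clock went the other way, from -0.89 ± 0.229 to -1.41 ± 0.0106. Dbp over Nfil3, an activator over the repressor at the same sequence, went from -1.51 ± 0.0747 to -2.05 ± 0.0162.

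**Figure D4:**
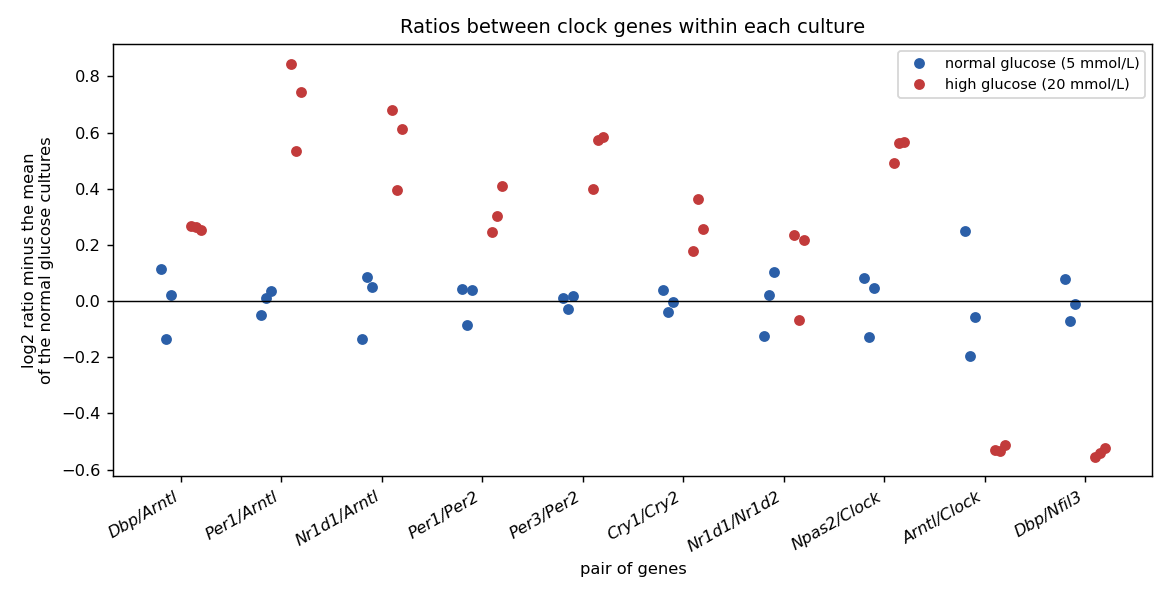
Log2 ratios between 10 pairs of clock genes within each culture, drawn as the difference from the mean of the normal-glucose cultures, with a point for each culture. All pairs but Nr1d1/Nr1d2 separate the groups, upward for 7 pairs such as Per1/Arntl (0.71) and downward for Arntl/Clock (-0.52) and Dbp/Nfil3 (-0.54). Several pairs share Arntl, and all but Dbp/Arntl were chosen after their values had been seen.

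The cultures of a group were not alike in their clock genes. Normal-glucose culture 1 was the lowest of its group in 7 of the 10 genes and culture 2 the highest in 8. The summed level of the 10 genes was 300.1, 339 and 323 CPM in normal glucose and 364, 355 and 367 CPM in high glucose. With TMM factors the sums thus did not overlap. This separation depends on these factors, since scaling by total counts alone places normal-glucose culture 2 above the high-glucose cultures. Over all genes, normal-glucose cultures 1 and 2 were also the pair of one group that differed most, with a chi-square of 59.9 per degree of freedom against 9.76 to 40.2 in the other pairs. Coefficients of variation of the members ran from 1.06% (Cry1) to 18.0% (Clock) in normal glucose and from 2.33% (Cry2) to 9.96% (Per2) in high glucose.

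Per1, Per3, Cry1 and Arntl passed the test in the same direction in all 18 alternative settings. These covered normalization, filters, tests, a stricter threshold, GC and length trends, the replicate block and the omission of each culture. Over them the log2FC ranged from 0.29 to 0.46 for Per1, from 0.46 to 0.65 for Per3, from 0.23 to 0.36 for Cry1 and from -0.42 to -0.30 for Arntl. Scaling by total counts alone moved the median log2FC of all tested genes from 0.0062 to -0.11 and the median of the 10 members from 0.16 to 0.048. It raised the share of lower genes among all calls from 46.2% to 72.9%, and upper quartile normalization raised it to 56.5%.

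**Figure D5:**
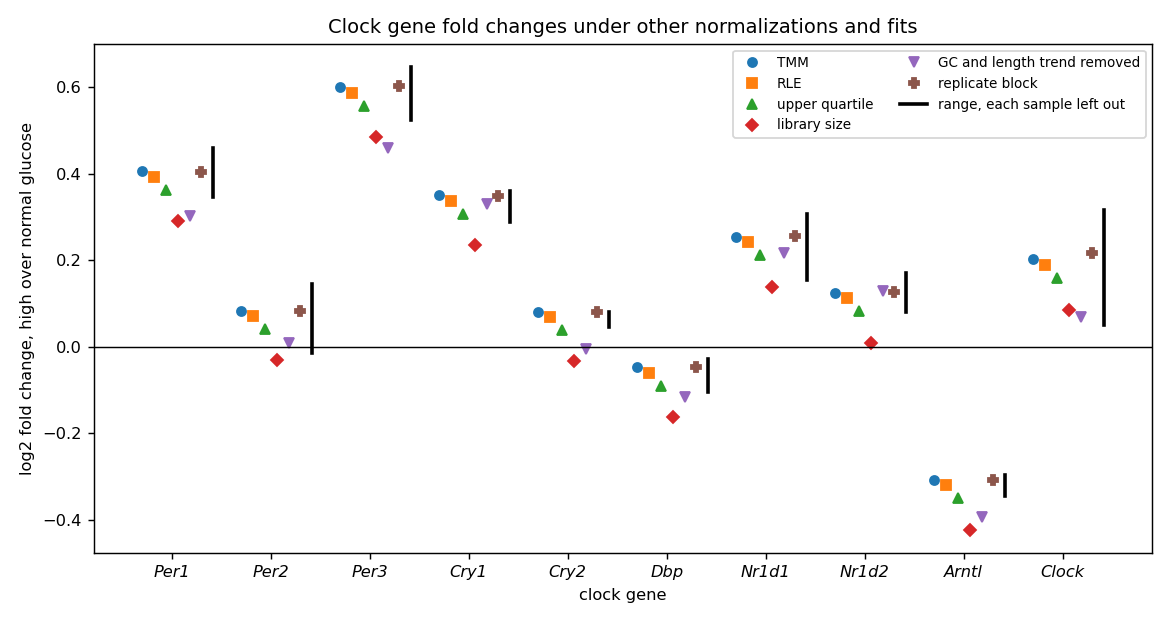
Log2FC values of the 10 clock genes in high over normal glucose under different normalizations and fits (symbols), with a black bar for the range when each culture is left out. Per1, Per3 and Cry1 stay above 0 and Arntl below it throughout, while Per2 and Cry2 cross 0 in some settings, such as -0.034 for Cry2 under library size scaling.

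The genes most like Per3, the member with the largest log2FC, were sought over the 6 cultures in 9985 genes. These lay outside both clock lists and had a mean log2 CPM of 3 or more, so clock and clock-associated genes were not compared. Likeness was the root mean square distance between log2 CPM values after each gene's mean had been subtracted. Among the 3 closest were Ampd3, an AMP deaminase (distance 0.0239), and Pou6f1, a POU-domain transcription factor (0.0438). Because they were chosen by these same values, log2FC values near that of Per3, here 0.57 and 0.53, follow from the choice.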

How the data were processed

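RNA was measured in 6 cultures, assigned to groups from their labels. Per the methods, the authors used Trimmomatic for trimming, HISAT2 for alignment to GRCm38 and StringTie for read counts per gene. They deposited these counts without normalization. Tool versions, the annotation release and strand use are not given in the sources used here. The labels name TRIzol and DNBSeq, the paper's methods a QIAGEN kit and Illumina HiSeq. A count of 1 occurred 10842 times in the table, 2 occurred 9280 times, 3 occurred 4716 times and 4 occurred 4874 times. Since even counts were this common, counts may not be independent molecules, and halved counts were tried. Floors cover counting error only.

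The test was run in edgeR 4.0.16 under R 4.3.3 (filterByExpr with a minimum count of 10, TMM, quasi-likelihood test, Benjamini-Hochberg adjustment over 19015 genes). CPM on the log2 scale used a prior count of 2. Standard errors came from the test statistic. Single values were compared with a two-sided exact permutation test. Scripts were tested on simulated data. The 346 identifiers without a symbol held 0.034% of counts. Total counts ran from 120192466 to 146881356 per culture, and the biological coefficient of variation was 8.44%. The labels describe cells isolated from pooled mice, and the paper's captions count 3 mice per group. Neither says which animals gave each culture, so p-values measure the spread between these samples, which may be technical. Positions and lengths came from GENCODE M21 for GRCm38, and promoter windows from RefSeq.

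The genes named are the 10 members, 21 further clock-associated genes, 8 glucocorticoid-induced genes, genes whose exons overlap a member and cell type markers. Also sought were the 3 genes outside both clock lists most like the member with the largest change. A few genes of these lists are not reported here. Members and lists were chosen with earlier results of these data known. Alternatives were RLE, upper quartile and library size scaling, no filter and a minimum count of 50, the likelihood ratio test, DESeq2 1.42.0, an adjusted p under 0.01, halved counts, removal of GC and length trends (mgcv 1.9.3), the replicate number as a block, and each sample left out.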

Additional observations from a re-analysis of the deposited data

How the results depend on the processing

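Of the 31 clock and clock-associated genes, 13 had the same direction and the same call in all 18 settings, among them the members Per1, Per3, Cry1 and Arntl. Where a setting changed a result, the cause was not tested. Scaling by total counts alone gave 2 lower members, 3 higher and 10 lower clock-associated genes, and 1819 higher and 4884 lower genes in all, and it turned Per2 to -0.032, Cry2 to -0.034, Gsk3b to -0.015 and Nampt to -0.063. An adjusted p under 0.01 left 3 higher clock-associated genes and 1946 higher and 1671 lower genes in all. Removing GC and length trends gave 8 lower clock-associated genes and turned Cry2 to -0.0061 and Gsk3b to -0.011. With the replicate block added to that removal, 3 clock-associated genes were higher, Cry2 was -0.0060 and Gsk3b -0.0078. Leaving out 1 culture at a time gave 3 to 6 higher members and 1 lower in each case. It gave 3 to 6 higher and 4 to 5 lower clock-associated genes (3 higher without high-glucose culture 1 or 3), and 1988 to 3149 higher and 2048 to 3065 lower genes in all (2010 higher without high-glucose culture 1, 1988 without culture 3). Leaving out 1 culture gave log2 fold changes of -0.015 to 0.15 for Per2, -0.27 to 0.020 for Rorb and -0.0013 to 0.077 for Nampt. Without normal-glucose culture 1 Rorb was 0.020 and Fbxw11 was called lower (-0.16, adjusted p = 0.0192). Without high-glucose culture 1 Per2 was -0.015, and without high-glucose culture 2 Nampt was -0.0013. The difference in the Dbp to Arntl ratio lay between 0.19 and 0.32 with a culture left out and moved by less than the spread with other prior counts. Same-numbered cultures of the groups did not deviate together (correlations -0.025, 0.0038 and 0.013), and not every culture correlated best with its own number, so the numbers were not taken as pairs. With the replicate block, 3 members were higher and 1 lower, 6 clock-associated genes were higher and 4 lower, and 2909 genes in all were higher and 2418 lower. Of the clock and clock-associated genes, the block changed the calls of Nr1d1 (0.26, adjusted p = 0.071) and Bhlhe41 (-0.31, adjusted p = 0.0745) only. Per-length levels with the longest transcript were 6.86 for Per1, 3.21 for Per3, 3.04 for Cry1, 11.8 for Cry2, 19.3 for Dbp, 19.2 for Nr1d1, 9.94 for Nr1d2, 6.11 for Arntl and 4.69 CPM per kb for Clock in normal glucose.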

Other observations

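Per1 is also known as a direct target of the glucocorticoid receptor, and the levels of 8 genes known to be induced by glucocorticoids were read beside it. Of the 8, 3 rose, 2 fell and 3 did not pass the quasi-likelihood test of edgeR (adjusted p by Benjamini-Hochberg). Of all tested genes, 16.9% were higher and 14.5% lower. Cdkn1c, an inhibitor of cyclin-dependent kinases, was at 21.4, 18.6 and 21.0 CPM in normal glucose and at 37.5, 35.9 and 35.1 CPM in high glucose, so that it rose by 0.83 on the log2 scale (SE 0.065, adjusted p = 6.68e-06). Klf9, a zinc-finger transcription factor, was at 139, 132 and 125 CPM in normal and 173, 188 and 176 CPM in high glucose (0.44 on the log2 scale, adjusted p = 0.000269). Zbtb16, a transcriptional repressor, was low, at 0.491 ± 0.146 and 1.14 ± 0.0907 CPM (SD, n = 3), with a log2 fold change of 1.21 (adjusted p = 0.00151). The groups did not overlap in 7 of the 8 genes, these 3 among them, against 46.4% of all tested genes.

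The 2 that fell were Fkbp5, a co-chaperone of the glucocorticoid receptor, and Dusp1, a phosphatase of MAP kinases. Fkbp5 averaged 51.4 ± 1.32 and 41.0 ± 0.764 CPM (log2 fold change -0.32, adjusted p = 0.000673). Dusp1 averaged 71.3 ± 4.46 and 56.3 ± 4.05 CPM (log2 fold change -0.34, adjusted p = 0.00352). Tsc22d3, Sgk1 and Errfi1 had log2 fold changes of 0.044, 0.11 and -0.19, with adjusted p of 0.687, 0.107 and 0.0612. The median over the 8 genes was 0.077, beside 0.0062 over all tested genes.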
